A study of Mus musculus with 6 samples.

Results

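The 10 genes described here are transcription factor subunits of AP-1 and other immediate early genes: Fos, Fosb, Jun, Junb, Jund, Egr1, Ier2, Zfp36, Dusp1 and Klf6. They were taken by symbol from the deposited count table, where all 10 were found among 46983 genes and all 10 passed the expression filter that left 13705 genes for testing. They were measured by poly-A RNA sequencing in mouse leukemia cells of 2 genotypes, with 3 libraries of each. In both groups, stem and progenitor cells negative for lineage markers and positive for Sca-1 and c-Kit had been sorted from C57BL/6J bone marrow, transduced with a retrovirus carrying the leukemia fusion gene MLL-AF9, and passed as GFP-positive cells into irradiated C57BL/6J mice. The donors were Alox5-/- in one group and wild-type (WT) in the other, and all libraries were untreated. Alox5 encodes 5-lipoxygenase, the first enzyme of leukotriene synthesis. The labels name one cell line per genotype and call the libraries biological replicates without saying whether animals or transductions differed. Genotype and line therefore cannot be told apart, and the p-values refer to the spread among these libraries, which may be technical. The sources used here do not give the age of the mice.

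AP-1 is a dimer of basic leucine zipper proteins, built from a JUN protein (Jun, Junb, Jund) with either another JUN or a FOS protein (Fos, Fosb, Fosl1, Fosl2). Most of these genes are immediate early genes, which are transcribed within minutes of a stimulus without new protein synthesis, mainly through MAP kinases acting on SRF, its TCF partners and CREB at their promoters, and their transcripts are short-lived. The response contains its own brakes: Dusp1 is a phosphatase that inactivates MAP kinases, and Zfp36 (tristetraprolin) binds AU-rich elements and promotes the decay of early transcripts. In myeloid cells, JUN and EGR proteins are known for their part in monocyte and macrophage differentiation.

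The upstream sequences of 4 of these genes are shown because each carries a member of one group of elements, bound by CREB, ATF and JUN proteins. Fos, Junb and Dusp1 share the motif TGACG, Dusp1 also holds TGACGTCA, and Jun holds TGACATCA. Jun and Junb are close relatives, of which Jun was called higher and Junb was not called, and no link of this to the sequences was tested. Sequences were taken from RefSeq (GRCm38.p6), in which 8 of the 10 symbols were matched, and Egr1 and Ier2 were not. They are written in the direction of transcription and lie at chr12:85473640-85473889 on the plus strand for Fos, and on the minus strand at chr4:95052223-95052472 for Jun, chr8:84978749-84978998 for Junb and chr17:26508520-26508722 for Dusp1. Those of Fos, Jun and Junb end at the base before the start site, and that of Dusp1 ends 48 bases before it, where an annotated exon begins. Capitals mark matches to the motifs described after the sequences.
Fos: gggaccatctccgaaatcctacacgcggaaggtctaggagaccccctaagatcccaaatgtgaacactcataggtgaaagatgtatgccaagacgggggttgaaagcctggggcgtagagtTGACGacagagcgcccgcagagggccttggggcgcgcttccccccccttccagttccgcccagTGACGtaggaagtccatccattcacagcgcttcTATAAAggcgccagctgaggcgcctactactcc
Jun: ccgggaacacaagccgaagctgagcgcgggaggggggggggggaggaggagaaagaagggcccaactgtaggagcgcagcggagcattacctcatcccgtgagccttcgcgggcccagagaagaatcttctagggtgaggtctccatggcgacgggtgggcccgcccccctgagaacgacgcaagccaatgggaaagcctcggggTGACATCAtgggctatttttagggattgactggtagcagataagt
Junb: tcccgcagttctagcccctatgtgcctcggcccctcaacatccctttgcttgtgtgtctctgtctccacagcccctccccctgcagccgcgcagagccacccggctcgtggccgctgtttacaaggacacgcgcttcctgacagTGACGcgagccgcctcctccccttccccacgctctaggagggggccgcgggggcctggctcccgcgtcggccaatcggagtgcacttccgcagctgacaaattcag
Dusp1: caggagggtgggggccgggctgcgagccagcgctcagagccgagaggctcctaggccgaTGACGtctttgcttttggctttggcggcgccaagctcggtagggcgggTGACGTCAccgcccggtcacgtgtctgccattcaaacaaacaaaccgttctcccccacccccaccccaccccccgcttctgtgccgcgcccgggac

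In the 250 bases upstream of the start site, both strands were searched for each motif. The shorter motif TGACG was found in Fos, Fosb, Junb and Dusp1, or 4 of 8 genes, and in 17.8% of all 32851 promoters of the same length. Fos held it at 129 and 66 bases before the start site, with a TATAAA motif (in 12.4% of promoters) at 33 bases. Dusp1 held it at 191 bases and again within the full octamer TGACGTCA at 143 bases, an octamer present in 1.55% of promoters. The variant octamer TGACATCA, in 2.93% of promoters, lay 45 bases before the start site of Jun and 119 bases before that of Klf6. The AP-1 heptamer TGANTCA, found in 6.75% of promoters, was in none of the 8 windows. The EGR motif GCGNGGGCG was in Fosb and Zfp36 (4.7% of promoters), and the CArG box, the motif of SRF, was in Zfp36 alone (1.47% of promoters). All 250 bases of the Zfp36 window lie in annotated exons, and its matches with them. These matches describe letters in a short window and were not linked to the measurements.

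Libraries held 28985597 to 38695948 gene counts each. Levels are given as CPM, library-scaled counts with TMM factors, and a gene was called when its edgeR adjusted p was under 0.05. Alox5 stood at 65.6, 62.1 and 64.9 CPM in Alox5-/- replicates 1 to 3 and at 102, 106 and 106 CPM in WT (log2 fold change -0.70, edgeR adjusted p = 7.65e-10), so that the transcript was lower but present, and since the altered part of the allele is unknown here, this is a partial check of the labels. The leukocyte genes Ctsg (2712 and 2229 CPM in Alox5-/- and WT), Elane (430 and 486) and Ptprc (337 and 317) were high, as was Kit (136 and 160). Ly6a, which encodes the Sca-1 of the labelled sort, was nearly absent, with a mean of 0.763 CPM in the Alox5-/- group against 1.06 CPM. Of 10 myeloid blast markers, 4 were called higher and 5 lower (log2 fold changes -1.59 to 0.43). Of 8 stem and progenitor markers, 4 were tested, 2 of them called higher and 1 lower (-0.47 to 0.91), and the 8 summed to 380 to 391 CPM in Alox5-/- and 344 to 354 CPM in WT. Over all tested genes, 26.8% were called higher and 27.0% lower. One library, Alox5-/- replicate 2, stood apart: chi-square per degree of freedom was 9.1 and 10.3 for its pairs with the other Alox5-/- libraries, against 2.19 to 5.08 for the other pairs within a group and 35.5 to 50.2 between groups. Results without it are therefore also given for several of the genes and list counts.

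Of the 10 genes, 8 were called higher in Alox5-/- cells, none was called lower, and Junb and Fosb were not called. Among all tested genes 53.8% were called, 26.8% as higher and 27.0% as lower. The 8 called genes were also those in which all 3 Alox5-/- libraries lay above all 3 WT libraries, an arrangement found in 29.7% of tested genes (30.2% had the opposite one and 60.0% either). A rise of at least 1.5-fold was called for 6 of them (Egr1, Fos, Jund, Jun, Dusp1 and Klf6), against 7.60% of tested genes, with 3.94% falling by as much. The median log2 fold change was 0.76 over the 10 genes and 0.00 over all tested genes. The genes were chosen with earlier results of these data known, so their counts describe them and support nothing further.

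**Figure D1:**
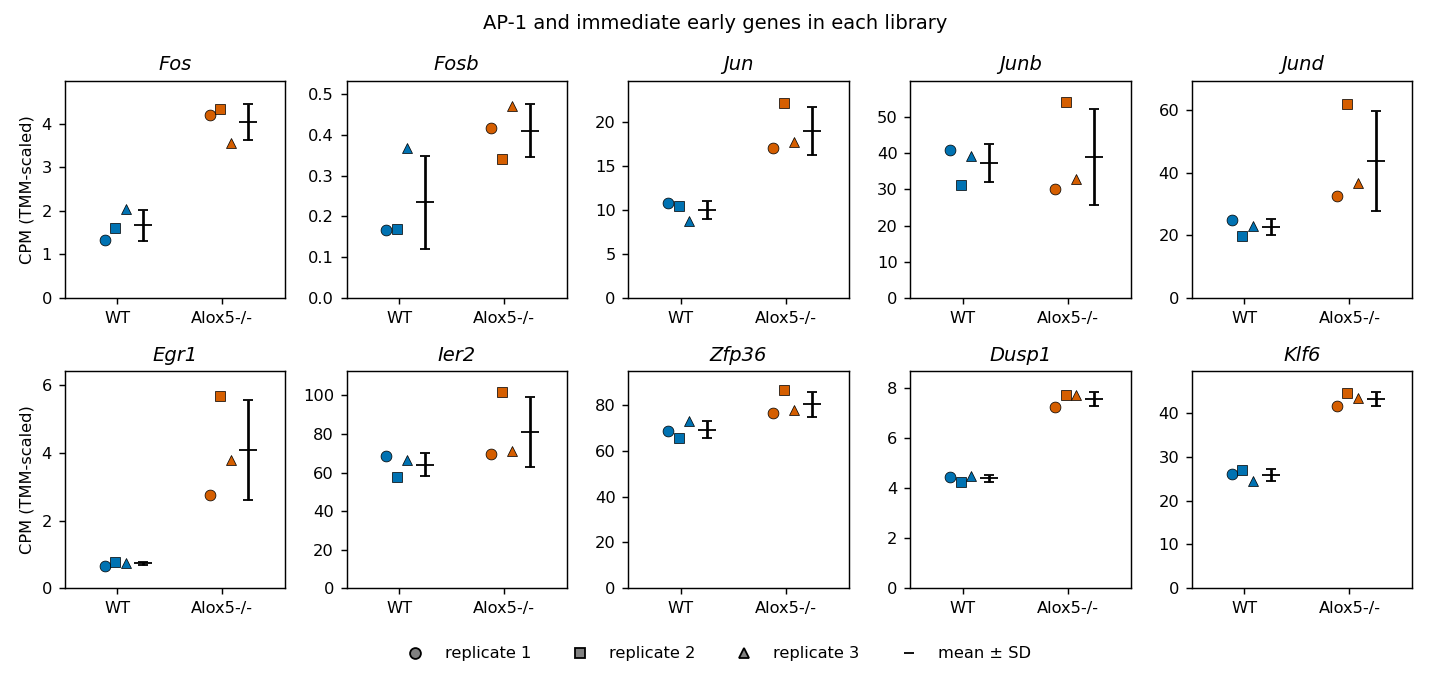
CPM of each of the 10 genes (vertical axis from 0, TMM-scaled) in the 3 WT (blue) and 3 Alox5-/- (orange) libraries, with markers for replicate numbers and the mean ± SD in black. Alox5-/- replicate 2 (square) is far above its group in Junb, Jund, Egr1 and Ier2, while the groups are tight and separate in Dusp1 and Klf6.

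Fos, the prototype partner of the JUN proteins, rose from a low level. It had 4.20, 4.34 and 3.57 CPM in Alox5-/- and 1.34, 1.62 and 2.04 CPM in WT, from 106 to 131 and 40 to 78 counts per library. The groups did not overlap, and the lowest Alox5-/- library was above the highest WT library by more than the range within either group. The log2 fold change was 1.25 (SE 0.15, 95% interval 0.92 to 1.58; edgeR adjusted p = 7.19e-06), or 2.38-fold. Fos (ENSMUSG00000021250) spans 85473890 to 85477273 on chromosome 12 (mm10).

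Fosb, on chromosome 7 from 19302696 to 19310051, was close to the limit of detection. It had 13, 10 and 14 counts in Alox5-/- and 5, 5 and 14 in WT, or 0.417, 0.342 and 0.471 against 0.167, 0.168 and 0.367 CPM. The groups overlapped, because WT replicate 3 lay above Alox5-/- replicate 2. The difference of 0.74 on the log2 scale (SE 0.38, 95% interval -0.08 to 1.55; edgeR adjusted p = 0.117) was not called, and at this depth neither no change nor a rise of the size seen in Fos could be separated from it. Without WT replicate 3 it was 1.27 and called (edgeR adjusted p = 0.0324).

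Jun, on chromosome 4 from 95049034 to 95052222, rose 1.91-fold. It had 17.0, 22.2 and 17.8 CPM in Alox5-/- and 10.8, 10.5 and 8.80 CPM in WT. Every Alox5-/- library was above every WT library, with replicate 2 the highest. The log2 fold change was 0.93 (SE 0.10; edgeR adjusted p = 2.06e-06), and 0.81 without Alox5-/- replicate 2 (edgeR adjusted p = 3.01e-07).

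Jund, on chromosome 8 from 70698949 to 70700616, is the JUN gene usually described as expressed without stimulation. It had 32.6, 62.0 and 36.6 CPM in Alox5-/- and 24.8, 19.8 and 23.0 CPM in WT. The groups did not overlap, but the size of the difference rested in good part on Alox5-/- replicate 2, the highest library by far. The log2 fold change was 0.95 (SE 0.17; edgeR adjusted p = 3.06e-04) with all libraries and 0.62 (SE 0.08; edgeR adjusted p = 2.35e-06) without that library.

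Junb, on chromosome 8 from 84974484 to 84978718, encodes a JUN protein that can restrain Jun and limits myeloid expansion in mice. It had 30.0, 54.1 and 32.8 CPM in Alox5-/- and 41.0, 31.2 and 39.3 CPM in WT. The groups overlapped, with Alox5-/- replicate 2 above all WT libraries and the other Alox5-/- libraries between or below them. Its log2 fold change was 0.063 (SE 0.16, 95% interval -0.28 to 0.41; edgeR adjusted p = 0.763). Without Alox5-/- replicate 2 the direction turned, to -0.24, and the gene was called lower (edgeR adjusted p = 0.0250), and without WT replicate 2 it was -0.046 and not called (edgeR adjusted p = 0.848).

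The ratio of Jund to Junb was steadier between libraries than the level of either gene, which was not so for the ratios with Jun. Within a library it was 1.09, 1.15 and 1.11 in Alox5-/- and 0.605, 0.634 and 0.586 in WT. Alox5-/- replicate 2, which had by far the most of both transcripts, had nearly the same ratio as the other libraries of its group. The difference was 0.88 on the log2 scale, with an SD of 0.039 in Alox5-/- and 0.057 in WT. The exact permutation test over the 6 libraries (two-sided) gave p = 0.1, the smallest that 3 against 3 allows, and 0.12 after adjustment over the 6 ratios computed, which were chosen after the values were seen.

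The ratio of Jun to Junb was also higher in Alox5-/- libraries without overlap (0.568, 0.410 and 0.542, against 0.263, 0.336 and 0.224 in WT), a difference of 0.89 on the log2 scale (exact permutation p = 0.1, adjusted 0.12). That of Jun to Jund overlapped between the groups (0.523, 0.358 and 0.486 against 0.435, 0.530 and 0.382), with a difference of 0.016 on the log2 scale (exact permutation p = 1). Expressed per kilobase of annotated exon, Jund made up 53.0 ± 1.78% (SD, n = 3) of JUN family transcripts in Alox5-/- and 41.2 ± 0.142% (SD, n = 3) in WT. Junb made up 34.4 ± 0.304% and 49.1 ± 1.78%, and Jun 12.6 ± 2.02% and 9.67 ± 1.64%. On this scale Junb led in all 3 WT libraries and Jund in all 3 Alox5-/- libraries, but which gene leads in WT depends on the exon length used. With the exon bases shared with opposite-strand genes left out, an alternative chosen after the data were seen, Jund led in all 6 libraries, with 68.7 ± 1.53% in Alox5-/- and 57.7 ± 0.144% in WT. The Jund share was higher in each Alox5-/- library than in each WT library with either length. This is not separate support, because both lengths only rescale the same counts by a constant per gene.

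**Figure D2:**
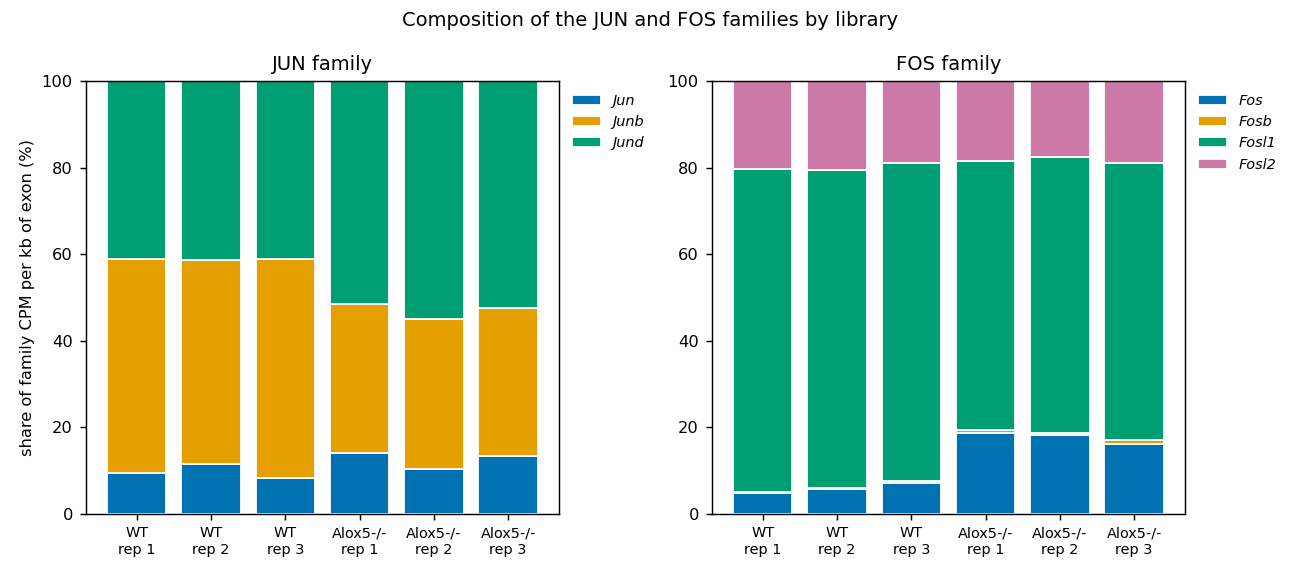
Share of each gene (vertical axis, %) in the CPM per kilobase of exon summed over the JUN genes (left) and the FOS genes (right) in each of the 6 libraries. The Jund share is 41.0 to 41.3% in WT and 51.5 to 54.97% in Alox5-/-, and the Fos share 4.81 to 7.07% in WT and 16.2 to 18.8% in Alox5-/-.

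Among the FOS genes, Fosl1 and Fosl2 moved against Fos. Fosl1 (FRA-1) had 12.0, 13.1 and 12.1 CPM in Alox5-/- and 17.9, 17.6 and 18.4 CPM in WT, a fall of 0.53 on the log2 scale (edgeR adjusted p = 4.75e-06). Fosl2 (FRA-2) had 17.0, 17.3 and 17.2 CPM in Alox5-/- and 23.3, 23.5 and 22.5 CPM in WT, and fell by 0.43 (edgeR adjusted p = 1.12e-05). Neither gene showed overlap between the groups, as in 60.0% of tested genes. Neither was raised in Alox5-/- replicate 2 to the extent seen in Jund or Junb. Per kilobase of exon, Fosl1 was the leading FOS transcript in every library, with 63.2 ± 0.975% in Alox5-/- and 73.9 ± 0.630% in WT, and Fos made up 17.7 ± 1.33% and 5.90 ± 1.13%. The ratio of Fos to Fosl1 CPM was 0.349, 0.331 and 0.294 in Alox5-/- and 0.0746, 0.0916 and 0.111 in WT (exact permutation p = 0.1, adjusted 0.12).

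Leucine zipper genes related to AP-1 moved both ways. Of 14 listed, Fosl1 and Fosl2 among them, 10 were tested, 3 of them called higher and 4 lower (background 26.8% higher, 27.0% lower). The median was -0.085 on the log2 scale. Jdp2, a repressor that dimerises with JUN proteins, had 77.9, 85.9 and 80.2 CPM in Alox5-/- and 51.0, 49.96 and 51.6 CPM in WT (log2 fold change 0.68, edgeR adjusted p = 6.42e-09). The stress-induced factor Atf3, chosen after its values were seen, rose by 1.35 on the log2 scale from a mean of 1.82 to 4.55 CPM. Beside Fosl1 and Fosl2, given above, the remaining calls were Maff, 0.25 higher, and Atf2 and Atf7, each 0.10 lower. The count called lower was 2 without Alox5-/- replicate 1, without Alox5-/- replicate 2 or without WT replicate 1.

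Egr1, a zinc finger factor induced by SRF and its TCF partners, had the largest rise of the 10 genes. It had 2.76, 5.68 and 3.80 CPM in Alox5-/- (86, 166 and 113 counts) and 0.670, 0.774 and 0.760 CPM in WT (20, 23 and 29 counts). The WT libraries were nearly equal, the Alox5-/- libraries were spread over a wide range with replicate 2 the highest, and there was no overlap. On the log2 scale Egr1 rose by 2.46 (SE 0.26, 95% interval 1.90 to 3.01; edgeR adjusted p = 1.62e-06), or 5.49-fold, and only 24 of 13705 tested genes had a larger one. Without Alox5-/- replicate 2 it was 2.15 (edgeR adjusted p = 9.37e-08). Egr1 (ENSMUSG00000038418) lies on chromosome 18 from 34859823 to 34864984.

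The related Egr2, also chosen after its values were seen, moved the other way, from a mean of 1.47 CPM in WT to 0.876 CPM in Alox5-/- (log2 fold change -0.72, edgeR adjusted p = 0.0132). The ratio of Egr1 to Egr2 was 2.97, 5.93 and 5.14 in Alox5-/- and 0.465, 0.418 and 0.674 in WT (exact permutation p = 0.1, adjusted 0.12). Nab2, a co-repressor that binds EGR proteins and is itself an EGR target, had 6.90, 6.77 and 5.72 CPM in Alox5-/- and 3.38, 3.40 and 4.43 CPM in WT (log2 fold change 0.77, edgeR adjusted p = 7.34e-05). Egr1 was therefore above Egr2 in every Alox5-/- library and below it in every WT library as counted, which compares the genes without regard to length.

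Klf6, a Kruppel-like factor induced early by growth stimuli, differed between the groups with little spread within them. It had 41.5, 44.6 and 43.5 CPM in Alox5-/- and 26.1, 27.0 and 24.4 CPM in WT. No library stood apart in either group. It rose by 0.74 on the log2 scale (SE 0.05; edgeR adjusted p = 2.04e-08), or 1.67-fold, and 0.73 without Alox5-/- replicate 2. Klf6 spans 5861482 to 5870394 on chromosome 13.

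Ier2, a short nuclear protein of uncertain function and the most abundant of the 10 transcripts per kilobase of annotated exon, rose by a small amount. It had 69.9, 102 and 71.3 CPM in Alox5-/- and 68.4, 57.6 and 66.4 CPM in WT. The groups did not overlap, but Alox5-/- replicates 1 and 3 lay only just above the highest WT library. Ier2 rose by 0.33 on the log2 scale (SE 0.11; edgeR adjusted p = 0.0169). It was 0.14 without Alox5-/- replicate 2 and still called (edgeR adjusted p = 0.0436), and the call was lost without WT replicate 2 (0.26, edgeR adjusted p = 0.0844) and with DESeq2 (0.34, DESeq2 adjusted p = 0.169). Ier2 lies on chromosome 8 from 84661331 to 84662852.

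Both brakes of the early response were higher. Dusp1, on chromosome 17 from 26505590 to 26562128, had 7.25, 7.73 and 7.74 CPM in Alox5-/- and 4.45, 4.24 and 4.51 CPM in WT. The libraries within each group were within a few percent of each other, and replicate 2 was not apart. Dusp1 rose by 0.78 on the log2 scale (SE 0.09; edgeR adjusted p = 3.00e-06), or 1.72-fold. Zfp36, on chromosome 7 from 28376784 to 28380253, had 76.6, 86.5 and 77.5 CPM in Alox5-/- and 68.7, 65.5 and 72.9 CPM in WT. Its rise was small, 0.21 on the log2 scale (SE 0.05; edgeR adjusted p = 0.00227) and 0.16 without Alox5-/- replicate 2 (edgeR adjusted p = 0.00710).

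**Figure D3:**
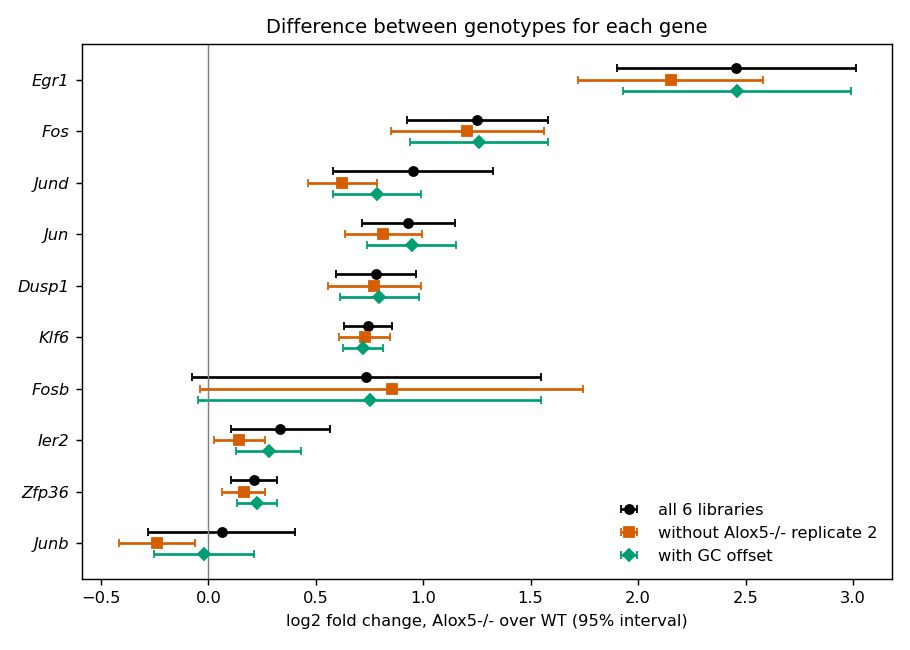
Log2 fold change of Alox5-/- over WT with its 95% interval (horizontal axis) for the 10 genes, with all 6 libraries (black), without Alox5-/- replicate 2 (orange) and with an offset for GC content (green). Egr1 and Fos are farthest to the right in all 3, and Junb lies at 0.063, -0.24 and -0.021.

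Levels of different genes can be compared only per length. In WT the order was Ier2 (42.2 ± 3.78 CPM per kilobase of exon), Zfp36 (19.9 ± 1.07), Junb (16.2 ± 2.28), Jund (13.5 ± 1.53), Klf6 (5.88 ± 0.301), Jun (3.14 ± 0.334), Dusp1 (1.33 ± 0.0422), Fos (0.708 ± 0.151), Egr1 (0.164 ± 0.0126) and Fosb (0.0375 ± 0.0184; SD, n = 3 each). Junb and Jund were the only neighbours in WT whose libraries overlapped. With the shared exon bases left out, Jund moves above Junb there, and its place beside Zfp36 also depends on the length used. In Alox5-/- Ier2 was again first per kilobase of annotated exon (53.2 ± 11.9), followed by Jund (26.2 ± 9.58), Zfp36 (23.1 ± 1.57) and Junb (16.9 ± 5.72). Ranges of these last 3 overlapped between neighbours, although Jund was above Junb within each of the 3 libraries. Whether Ier2 or Jund is first in Alox5-/- depends on the exon length used for Jund. The last 6 kept their order, from Klf6 (9.83 ± 0.357) to Fosb (0.0657 ± 0.0104). The genes with the largest fold changes, Egr1 and Fos, were thus among the 3 least abundant in both groups.

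The spread between libraries was wide for several of these genes beside genes of like level. In Alox5-/- the coefficient of variation was 36.5% for Jund, 33.8% for Junb and 22.3% for Ier2, while genes within 0.25 log2 units of their mean levels had medians of 3.75%, 3.54% and 2.79%. Egr1 had 36.2% in Alox5-/- against a median of 11.1% for genes of its level, and 7.72% in WT against 10.5%. Dusp1 (3.66%) and Klf6 (3.64%) were at or below the medians for their level in Alox5-/- (7.23% and 3.69%). Alox5-/- replicate 2 was the highest library of its group for 8 of the 10 genes and for 36.4% of all tested genes.

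Base composition and exon structure moved in part with the deviations of that library. In Alox5-/- replicate 2, the log2 deviation from the group mean was 0.56 for Jund, 0.52 for Junb, 0.48 for Egr1, 0.35 for Ier2 and 0.23 for Jun. Jund, Junb, Ier2 and Jun are the 4 genes of the 10 whose main transcript has a single exon, and the GC content of the main transcript was 67.2% for Jund, 62.6% for Junb and 60.9% for Ier2. It was 57.3% for Egr1, whose main transcript has 2 exons, and 55.5% for Jun. Fosb, Dusp1, Zfp36, Fos and Klf6 had 42.4 to 56.0% and deviated by -0.11 to 0.11. Among tested protein-coding genes, split into 10 bins by GC content, the median deviation of this library was 0.078 in the highest bin (58.2 to 69.3% GC) and -0.013 to 0.023 in the other bins. It was highest of its group for 59.1% of 274 single-exon genes and 36.6% of 11315 others. For genes within 1 percentage point of the GC content of Jund the median deviation was 0.16 (12 genes), for Junb 0.14, for Ier2 0.086 and for Egr1 0.027. WT replicate 2 had the opposite trend, with a median of -0.085 in the highest bin. The part of base composition and of exon structure in the values of the 10 genes was not tested. The GC offset described next was fitted to deviations from the mean of all 6 libraries. It can therefore also take up a GC trend between the genotypes.

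With an offset for GC content in each library, an alternative chosen after these values were seen, the 8 genes were still called higher. Jund was then 0.78 higher on the log2 scale with a smaller SE (0.10 in place of 0.17; edgeR adjusted p = 2.99e-06), and Ier2 0.28 (SE 0.07; edgeR adjusted p = 0.00299). Junb was at -0.021 (SE 0.11; edgeR adjusted p = 0.882). Egr1 (2.46), Fos (1.26), Jun (0.95) and Dusp1 (0.79) changed little.

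**Figure D4:**
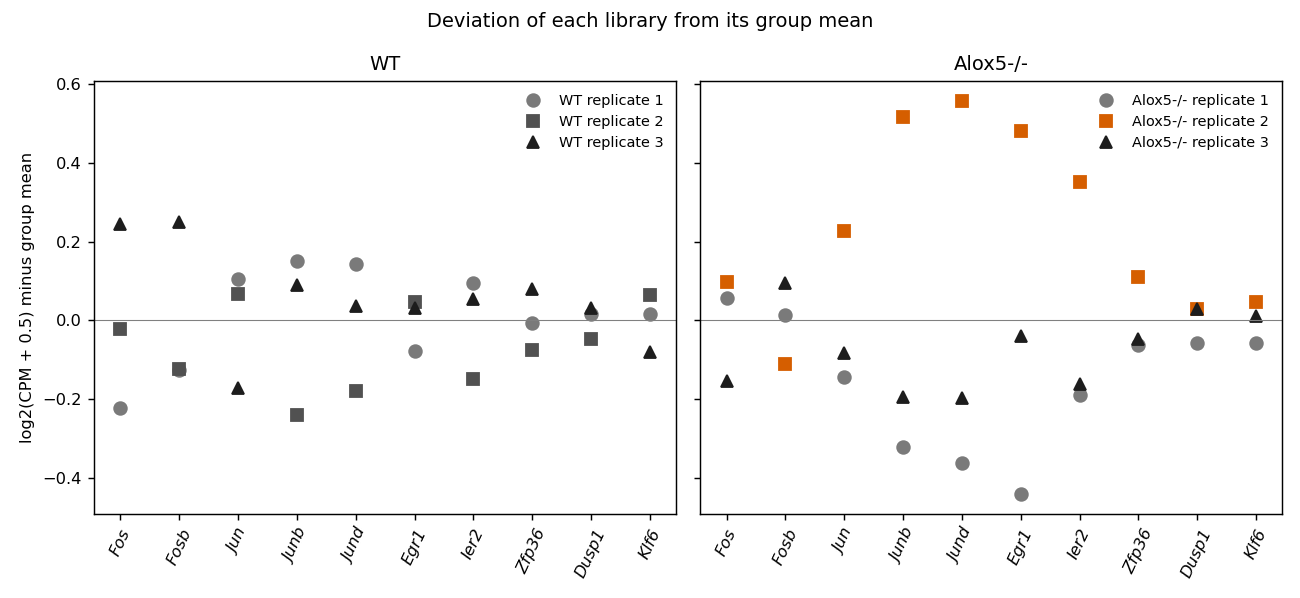
Deviation of each library from its group mean in log2(CPM + 0.5) (vertical axis) for the 10 genes, in WT (left) and Alox5-/- (right). Alox5-/- replicate 2, in orange, reaches 0.56 in Jund and 0.52 in Junb and lies within 0.11 of the mean in Fos, Fosb, Zfp36, Dusp1 and Klf6.

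Other immediate early genes also rose more often than they fell. Of 33 listed, 27 were tested, and 14 were called higher and 5 lower, and their median was 0.21 on the log2 scale (background 26.8% higher, 27.0% lower). Nfil3, a leucine zipper repressor, had 30.3, 32.1 and 32.2 CPM in Alox5-/- and 15.8, 15.4 and 14.8 CPM in WT (log2 fold change 1.04, edgeR adjusted p = 1.27e-09). Ppp1r15a (GADD34), which directs a phosphatase to the translation factor eIF2 alpha, had 42.1, 56.9 and 48.2 CPM against 17.6, 13.9 and 15.8 CPM (log2 fold change 1.64, edgeR adjusted p = 4.05e-09). Without Alox5-/- replicate 2 the rise of Ppp1r15a was 1.52. Btg1, an antiproliferative gene, had 40.0, 43.4 and 44.2 CPM against 25.5, 27.6 and 25.5 CPM (log2 fold change 0.70, edgeR adjusted p = 5.51e-08). None of these 3 genes overlapped between the groups, but they were named for their small p, and 60.0% of tested genes did not overlap. The 5 called lower were Egr2, Arc, Btg2, Sik1 and Rgs2, named because they were few, and 3 were called lower without Alox5-/- replicate 3 or with DESeq2.

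The kinases and factors upstream of these genes did not move in one direction. In the MAP kinase cascade, 10 genes of 28 were called higher and 7 lower (background 26.8% higher, 27.0% lower), with a median of 0.012 on the log2 scale. Braf, a kinase at the top of the ERK branch, rose by 0.33 (edgeR adjusted p = 1.10e-06), while Map2k3, which activates p38, fell by 0.47 (edgeR adjusted p = 2.47e-08) and Rps6ka1, the kinase RSK1 downstream of ERK, fell by 0.39 (edgeR adjusted p = 1.81e-07). The count called lower was 4 without WT replicate 1 or without WT replicate 3, and with scaling by total gene counts.

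Factors that act at immediate early promoters were lower or not called, apart from 1 co-repressor. Of 11 tested, 5 were called lower and only Nab2, described with Egr1, was called higher (background 27.0% lower, 26.8% higher). The median log2 fold change was -0.0083. Srf had 128, 136 and 127 CPM in Alox5-/- and 168, 151 and 166 CPM in WT, a fall of 0.31 on the log2 scale (edgeR adjusted p = 2.23e-05). Mkl1, the SRF co-activator MRTF-A, had 74.1, 77.7 and 71.0 CPM against 96.7, 93.6 and 103 CPM, a fall of 0.40 (edgeR adjusted p = 2.27e-06). The groups did not overlap in either gene, but both were named for their small p, and 60.0% of tested genes did not overlap. The count called lower was 3 without WT replicate 1, that called higher was 2 without WT replicate 2, and with scaling by total gene counts 4 were called higher and 3 lower.

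Of 16 tested feedback inhibitors of MAP kinase signalling other than Dusp1, 10 were called higher and Dusp2 lower (background 26.8% higher, 27.0% lower). Their median log2 fold change was 0.31. Dusp6, which acts on ERK, had 22.9, 28.7 and 27.2 CPM in Alox5-/- and 14.4, 14.6 and 14.1 CPM in WT (log2 fold change 0.87, edgeR adjusted p = 2.44e-07). Without Alox5-/- replicate 2 the rise of Dusp6 was 0.81. Dusp16, which acts mainly on JNK and p38, rose by 0.83 (edgeR adjusted p = 1.89e-08), and Spred3, an inhibitor of RAS signalling to RAF, by 1.24 (edgeR adjusted p = 5.80e-09). The groups overlapped in none of the 3 genes, which were named for their small p, and in 60.0% of tested genes they did not overlap. Among AU-rich element binding proteins, 3 of 7 were called higher and 3 lower (background 26.8% and 27.0%). Zfp36l1, a paralog of Zfp36, rose from 5.89, 4.95 and 4.77 CPM in WT to 10.2, 13.4 and 10.2 CPM in Alox5-/- (log2 fold change 1.12, edgeR adjusted p = 1.41e-06), while Tia1 (0.19) and Elavl1 (-0.16) moved little. Without Alox5-/- replicate 2 the rise of Zfp36l1 was 0.985. Without Alox5-/- replicate 1, 1 of the 7 was called lower.

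The tested heat shock genes, from a list of constitutive and stress-inducible genes, were lower. All 10 tested of 12 listed were called lower (background 27.0% lower, 26.8% higher), with a median log2 fold change of -0.48. Without each library in turn, 10 were called lower. Hspa8, the constitutive HSC70 chaperone, had 273, 253 and 254 CPM in Alox5-/- and 780, 823 and 832 CPM in WT, a fall of 1.64 on the log2 scale (edgeR adjusted p = 1.62e-13). Hsph1, its nucleotide exchange factor, fell by 0.95 (edgeR adjusted p = 1.35e-11) and the co-chaperone Dnaja1 by 0.54 (edgeR adjusted p = 3.90e-08). The stress-inducible Hspa1b had means of 0.146 (Alox5-/-) and 0.433 CPM (WT), and Hspb1 had 1 count in all 6 libraries. Alox5-/- replicate 2 was the lowest library of its group for Hspa8, Hsph1 and Dnaja1, but only just. It had 253.0, 76.2 and 46.4 CPM, against 253.6, 77.9 and 47.4 CPM in Alox5-/- replicate 3.

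**Figure D5:**
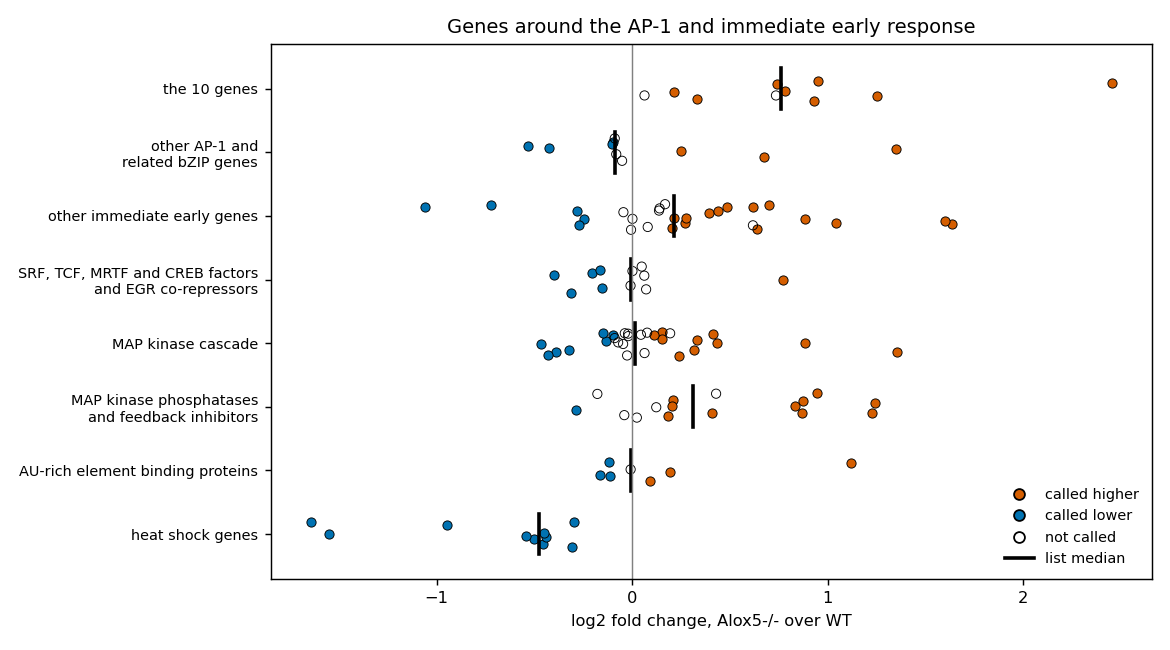
Log2 fold change (horizontal axis) of every tested gene in the 10 genes and in 7 other lists, with genes called higher in orange, called lower in blue, not called open, and the list median as a bar. The median is 0.76 for the 10 genes, 0.31 for the feedback inhibitors and -0.48 for the heat shock genes.

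Markers of other cell types were checked in the same libraries, since in bulk RNA more cells of a type and more RNA per cell cannot be told apart. The summed level of 9 macrophage markers was 97.7 to 101 CPM in Alox5-/- and 79.4 to 84.5 CPM in WT. Of 4 tested, 2 were called higher and 1 lower (background 26.8% and 27.0%), with log2 fold changes from -0.39 to 2.04. The complement genes C1qa, C1qb and C1qc had 1, 2 and 2 counts over all libraries, and Marco had none. The summed level of 7 mast cell and basophil markers was 61.0 to 66.6 CPM in Alox5-/- and 129 to 139 CPM in WT. Of 4 tested, 1 was called higher and 2 lower (background 26.8% and 27.0%), with log2 fold changes from -2.21 to 0.37. Fcer1a, Tpsb2 and Cma1 were at 0 in every library. Lymphoid markers summed to 15.1 to 19.7 and 10.1 to 14.4 CPM, nearly all of it Nkg7, with Cd3e at 0. Erythroid and megakaryocyte markers summed to 3.23 to 3.88 and 5.49 to 6.00 CPM. Stromal and endothelial markers summed to 207 to 212 and 184 to 187 CPM, of which Pecam1, also expressed by blood progenitors, had 196 and 174 CPM. The part of these differences in the levels of the 10 genes was not tested.

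Reads could not be assigned with certainty where genes overlap, since no source used here gives the strand setting of the counting. The exons of Jund share 877 of 1668 bases with Gm11175 on the opposite strand, for which 2 to 13 counts were listed per library. Jun shares 232 bases with Junos (3 to 12 counts per library) and Junb shares 173 bases with Prdx2 (3301 to 4726 counts per library), whose log2 fold change was -0.08. Whether the count of Jund covers the whole gene or only the bases it does not share depends on that setting.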

How the data were processed

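Poly-A RNA of 3 Alox5-/- and 3 WT libraries was amplified with a SMARTer kit, per the labels. The authors deposited raw read counts per gene, counted with HTSeq on mm10 (the submitters' processing notes list DESeq2 too). Aligner, versions, annotation and strand setting were not given in the sources used here. Their table lists 46983 genes, and 5 further lines name no gene and entered neither library sizes nor tests. These hold reads aligned more than once (24.4 to 24.8% of all reads), outside annotated genes (9.10 to 10.2%), not aligned (4.57 to 5.78%), ambiguous (0.523 to 0.547%) and of low quality (0%).

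Counts were tested in R 4.3.3 with edgeR 4.0.16 (TMM scaling, default expression filter, quasi-likelihood F-test, no covariate), with Benjamini-Hochberg adjustment over 13705 genes. The script was tested on simulated data. Standard errors came from the coefficient and its F statistic. Gene positions, exon lengths and GC content came from GENCODE vM21 on the same build, and main transcripts were the longest APPRIS principal ones. A count of 0 allows 3 counts, or 0.0786 to 0.103 CPM, for counting error only, since amplified reads can be copies of 1 molecule. Chi-square per degree of freedom was at least 2.19 for every pair of libraries, so none was a duplicate within sampling error.

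The members and gene lists were chosen with earlier results of these data known. Named genes were the 10 members, Alox5, and in each list the 3 called genes of smallest p. Other genes named (Atf3, Maff, Atf2, Atf7, Egr2, Arc, Btg2, Sik1, Rgs2, Dusp2, Hspa1b, Hspb1 and the markers) were picked from the lists after their values were seen. Alternatives were DESeq2 1.42.0, its size factors in edgeR, total-count scaling, no filter, a minimum mean of 5 CPM, a replicate block and each library left out. A GC offset was added after the data had been seen.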

Additional observations from a re-analysis of the deposited data

How the results depend on the processing

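The number of the 10 genes called higher was 8 with DESeq2's size factors, total-count scaling, no filter, the replicate block and the GC offset, 7 with DESeq2, 6 with a minimum of 5 CPM (at which Fos, Fosb and Egr1 were not tested), and 7 to 9 with a library left out. The number called lower was 0 throughout, apart from 0 to 1 with a library left out, the 1 being Junb without Alox5-/- replicate 2. Junb, at 0.063 with all libraries, ranged from -0.24 to 0.22 (edgeR) with a library left out, and reversed there, to -0.046 without WT replicate 2 and to -0.021 with the GC offset. Over all genes the calls numbered 7379, and 6130 to 7990 under the alternatives.

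In the lists, total-count scaling gave 2 lower AP-1 relatives, 4 higher and 3 lower promoter factors, 4 lower kinases and 1 lower AU-rich element binding protein. The 5 CPM minimum gave 3 lower immediate early genes and 2 higher promoter factors, DESeq2 gave 3 lower immediate early genes, and the GC offset gave 2 lower feedback inhibitors. With a library left out, the counts called lower were 2 to 4 for AP-1 relatives, 3 to 5 for immediate early genes, 3 to 5 for promoter factors, 4 to 7 for kinases and 1 to 4 for AU-rich element binding proteins, and those called higher were 1 to 2 for promoter factors. For list counts under total-count scaling, DESeq2 and the GC offset the cause was not tested.

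Same-numbered libraries of the 2 genotypes had correlations of -0.0424, -0.128 and -0.0140 in their deviations. Pairs of different number had -0.0767 to 0.102. The labels do not say whether replicate numbers mark pairs, and these values cannot settle it. With the replicate block 7029 genes were called, and it changed no call among the 10 genes. Depth limits Fosb, with 5 to 14 counts per library.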
